A study of Mus musculus with 4 samples.

Results

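Gadd45a, Gadd45b and Gadd45g, the 3 genes of the Gadd45 family, and Cdkn1a, which encodes the cyclin-dependent kinase inhibitor p21, were followed across 4 liver libraries. They are 4 of the 35275 genes counted, taken by symbol, and each symbol occurred once. Gadd45g and Cdkn1a had been picked by the study for their levels in these same libraries, and the other family members were added with their levels known, so all values below are a description and carry no test. The study also measured both transcripts by real-time qPCR in livers of individual mice, and reported them higher with IT and with amyloid deposition. Those qPCR values are not used here. The study asked how the liver transcriptome responds to interval training (IT) and to AApoAII amyloidosis. VS mice received vehicle and stayed sedentary, VI mice received vehicle and underwent IT, FS mice received AApoAII fibrils and stayed sedentary, and FI mice received fibrils and underwent IT. All mice were females of 26 weeks, carried the amyloidogenic Apoa2c allele, and had passed through 16 weeks of intervention. Organs were taken within a day of the end of training, and the mice of the study came from several series run at different dates. The study does not state the clock hour of collection or the series of the pooled livers. In the IT contrasts the last run and the 16 weeks of training cannot be told apart. The strain is AKR/J in the sample labels and R1.P1-Apoa2c in the methods of the study. Each library is a pool of 4 livers, so no group has a replicate. Differences among mice are averaged within a pool and cannot be measured from these libraries.

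The Gadd45 proteins are small, acidic, mostly nuclear proteins without enzymatic activity of their own. They act by binding partners, among them PCNA, p21, the CDK1-cyclin B1 complex and the kinase MAP3K4, through which they can activate the p38 and JNK pathways. Their genes are induced by different stresses, DNA damage and p53 for Gadd45a, NF-κB and TGF-β signals for Gadd45b, cytokines for Gadd45g. p21 binds cyclin-CDK complexes and PCNA and holds the cell cycle, and Cdkn1a is the classical transcriptional target of p53. In liver, transcripts of this group respond to fasting, hormones and injury as well as to DNA damage.

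Total counts lay between 23442935 and 28814802 per library, and scaling factors of the TMM method lay between 0.975 and 1.02. Levels are given as CPM, which are counts scaled to a library of 1000000. Whether a gene lies above or below another gene is read only from FPKM, which are also divided by gene length and are not TMM-scaled. Marker sums add CPM of genes of different length and serve to compare libraries. The liver label was borne out by hepatocyte markers, whose 6 genes summed to between 147148 and 163704 CPM. Log2 ratios compare a pair of libraries after adding 0.5 counts, and the range in parentheses is the exact conditional binomial (Clopper-Pearson) interval at 95%. All intervals cover counting error only, since amplified reads are not separate molecules and pools were not repeated. In bulk RNA, fewer cells that express a gene and less RNA per cell cannot be told apart.

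The 250 bases before each RefSeq start site (build GRCm38.p6) of the 4 genes are printed to show which motifs they hold. Whether any motif bears on the levels of these genes was not tested. All 4 genes had an entry, and Cdkn1a had start sites at 29090979 and 29093769, called distal and proximal here. The RefSeq start of Gadd45a lies inside the gene as listed in the deposited table, so part of its window is also the start of that gene. Capitals mark the CCAAT box (CCAAT), the E-box (CACGTG), the TATA box (TATAAA) and the p53 response element.
Gadd45a, chr6:67037408-67037657, - strand: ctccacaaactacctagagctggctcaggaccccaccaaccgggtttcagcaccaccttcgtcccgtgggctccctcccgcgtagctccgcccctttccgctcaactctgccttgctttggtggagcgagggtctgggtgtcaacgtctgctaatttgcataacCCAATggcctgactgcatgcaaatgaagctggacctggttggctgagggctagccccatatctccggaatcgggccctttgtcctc
Gadd45b, chr10:80929841-80930090, + strand: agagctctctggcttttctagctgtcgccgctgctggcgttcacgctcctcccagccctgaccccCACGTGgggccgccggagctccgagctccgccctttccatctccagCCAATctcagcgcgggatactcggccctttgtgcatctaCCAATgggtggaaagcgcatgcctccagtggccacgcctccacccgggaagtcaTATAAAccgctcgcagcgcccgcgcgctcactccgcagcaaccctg
Gadd45g, chr13:51846425-51846674, + strand: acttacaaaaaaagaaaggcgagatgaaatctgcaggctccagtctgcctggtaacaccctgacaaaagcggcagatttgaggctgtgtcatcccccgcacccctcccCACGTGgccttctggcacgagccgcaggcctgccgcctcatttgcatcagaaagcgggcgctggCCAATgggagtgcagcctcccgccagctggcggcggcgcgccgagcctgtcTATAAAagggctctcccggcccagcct
Cdkn1a distal start, chr17:29090729-29090978, + strand: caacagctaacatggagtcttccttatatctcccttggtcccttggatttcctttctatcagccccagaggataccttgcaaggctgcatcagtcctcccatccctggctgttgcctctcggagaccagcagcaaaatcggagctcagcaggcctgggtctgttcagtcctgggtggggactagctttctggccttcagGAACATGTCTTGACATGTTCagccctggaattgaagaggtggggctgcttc
Cdkn1a proximal start, chr17:29093519-29093768, + strand: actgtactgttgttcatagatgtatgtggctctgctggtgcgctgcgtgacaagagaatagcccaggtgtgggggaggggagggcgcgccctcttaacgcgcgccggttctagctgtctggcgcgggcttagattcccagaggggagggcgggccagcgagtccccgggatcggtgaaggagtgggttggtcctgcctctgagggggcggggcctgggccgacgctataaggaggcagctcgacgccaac
The p53 response element, 2 adjacent half-sites with at most 1 mismatch and no spacer, was found at positions −51 to −32 before the distal Cdkn1a start, as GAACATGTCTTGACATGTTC with 1 mismatch. Of 32851 such windows over the genome 25 held a match (0.0761%), and none lay in the Gadd45 windows or the window of the proximal Cdkn1a start. The element before the distal start is also upstream of the proximal start, outside its window. Bases farther upstream or inside the genes, and half-sites with a spacer, were not searched. A window without a match therefore does not show that its gene lacks a p53 response element. Gadd45b and Gadd45g, but not Gadd45a, held an E-box and a TATA box, motifs present in 6.02% and 12.4% of all windows. A CCAAT box was found before all 3 Gadd45 genes and in 33.8% of windows. The Gadd45g window alone among the 5 held a C/EBP-ATF site (TGATGCAA, on the opposite strand at −101 to −94), which 0.792% of windows hold. The GC box (GGGCGG, 32.7% of windows) occurred before Gadd45a, Gadd45b and the proximal Cdkn1a start. The cAMP response element (TGACGTCA), the FOXO site (GTAAACA) and the STAT site (TTCNNNGAA), present in 1.55%, 3.17% and 7.02% of windows, had no match in these 5 windows. Both strands were searched, no printed match overlaps another, and a match is a description of the letters, not evidence of binding. The motifs were chosen after these windows had been read. The percentages of all windows therefore do not measure how unusual a match is here.

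Within the family the levels diverged. Gadd45g spanned 23.9-fold between its lowest and highest library, Gadd45a 3.23-fold and Gadd45b 1.88-fold, against a median of 1.39-fold over the 12180 genes that reached 1 CPM in 1 library or more. Cdkn1a spanned 9.95-fold. Gadd45g and Cdkn1a were lowest in VS and highest in FI, Gadd45a was low in both IT libraries, and Gadd45b was lowest in FS.

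**Figure D1:**
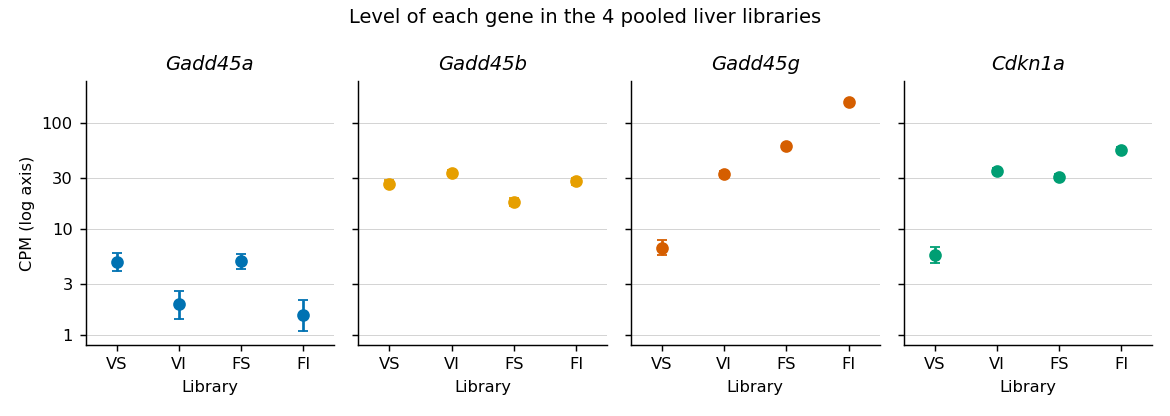
CPM on a log axis of Gadd45a, Gadd45b, Gadd45g and Cdkn1a in VS, VI, FS and FI, 1 pooled library each, with bars for the exact Poisson 95% interval of the count (hidden by the point where narrow). Gadd45g reached 159 CPM in FI from 6.65 CPM in VS. Gadd45a was under 2 CPM in VI and FI and near 5 CPM in VS and FS. Heights are not corrected for gene length, so they compare libraries within a gene.

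Gadd45a (ENSMUSG00000036390) lies on chromosome 6 from 67035096 to 67037457 on the minus strand, and its main transcript has 4 exons (mm10 coordinates of the deposited table, exons from the GENCODE annotation of GRCm38). The sedentary libraries held 115 (VS) and 146 (FS) counts of Gadd45a, or 4.87 CPM (4.02 to 5.85, exact Poisson) and 4.95 CPM (4.18 to 5.82). The IT libraries held 47 (VI) and 37 (FI), or 1.93 CPM (1.42 to 2.57) and 1.53 CPM (1.08 to 2.11). The IT libraries were thus both below the sedentary libraries, and the intervals of the 2 pairs did not overlap. Gadd45a was 2.51-fold lower in VI than in VS and 3.21-fold lower in FI than in FS, with log2 intervals of −1.86 to −0.83 and −2.25 to −1.16. These placed it at rank 113 and 65 from the bottom of 12180 genes. With fibrils the log2 ratio was 0.02 (−0.34 to 0.39) in sedentary livers and −0.33 (−0.997 to 0.32) in trained livers, so neither pair of neighbours in the order of levels differed beyond counting error. Gadd45a shares 337 bases of exon with E230016M11Rik, a noncoding gene on the opposite strand with 35, 16, 27 and 19 counts in VS, VI, FS and FI. Its log2 ratio with IT was −1.15 (−2.13 to −0.28) in vehicle livers and −0.21 (−1.15 to 0.68) in fibril livers, the latter within counting error. No source used here states whether strand was used in counting, so reads in these bases cannot be assigned to either gene with certainty.

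Gadd45b (ENSMUSG00000015312, chromosome 10, 80930091 to 80932204, plus strand, 4 exons) varied least. Vehicle livers held 631 (VS) and 824 (VI) counts, or 26.7 CPM (24.7 to 28.9) and 33.8 CPM (31.6 to 36.2). Fibril livers held 532 (FS) and 683 (FI), or 18.02 CPM (16.5 to 19.6) and 28.2 CPM (26.2 to 30.4). The differences with IT and with fibrils had opposite signs. Gadd45b was higher with IT, with a log2 ratio of 0.34 (0.19 to 0.49) in vehicle livers and 0.65 (0.48 to 0.81) in fibril livers. It was lower with fibrils, at −0.57 (−0.74 to −0.40) in sedentary and −0.26 (−0.41 to −0.11) in trained livers. FI and VS, where both or neither factor applied, were neighbours in level and differed by a log2 ratio of 0.08 (−0.08 to 0.24). No contrast of Gadd45b reached 2-fold.

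Gadd45g (ENSMUSG00000021453, chromosome 13, 51846678 to 51848468, plus strand, 4 exons) differed most. VS held 157 counts, or 6.65 CPM (5.65 to 7.77), and VI 800 counts, or 32.8 CPM (30.6 to 35.2). FS held 1792 counts, or 60.7 CPM (57.9 to 63.6), and FI 3837 counts, or 159 CPM (154 to 164), and no interval overlapped another. FS exceeded VI by a log2 ratio of 0.89 (0.77 to 1.01), so every step in the order VS, VI, FS, FI was larger than counting error. Gadd45g was 4.93-fold higher in VI than in VS, 2.61-fold in FI than in FS, 9.11-fold in FS than in VS and 4.83-fold in FI than in VI. Among 12180 genes these changes held ranks 21, 79, 17 and 28 from the top in that order, and FI versus VS held rank 10.

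Cdkn1a (ENSMUSG00000023067, chromosome 17, 29090979 to 29100722, plus strand) has 3 exons in its main transcript, which begins at the proximal start. VS held 133 counts, or 5.63 CPM (4.72 to 6.67), and FS 908 counts, or 30.8 CPM (28.8 to 32.8). VI held 863 counts, or 35.4 CPM (33.1 to 37.9), and FI 1356 counts, or 56.1 CPM (53.1 to 59.1). VS stood far below the other libraries, and VI and FS lay close together, with FS lower than VI by a log2 ratio of −0.20 (−0.34 to −0.07). Cdkn1a was 6.27-fold higher in VI than in VS and 5.45-fold higher in FS than in VS, which is rank 11 and rank 40 from the top. From either of these levels the step to FI was smaller, 1.58-fold over VI and 1.82-fold over FS, at ranks 762 and 285. Counts are summed over the gene, so transcripts from the distal and the proximal start cannot be told apart.

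**Figure D2:**
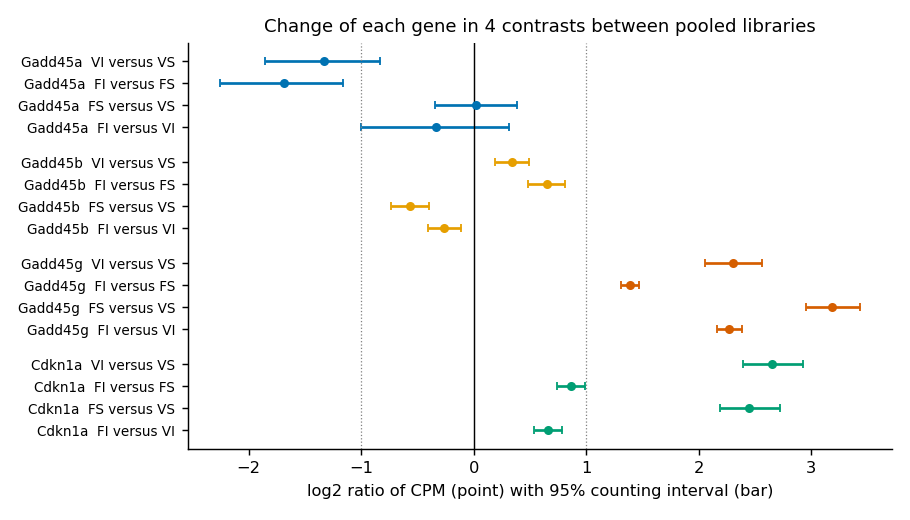
Log2 ratios of CPM (points) with their 95% counting intervals (bars) for the 4 genes in both IT contrasts and both fibril contrasts, with dotted lines at 2-fold. All ratios of Gadd45g lie above 1, those of Gadd45b all lie within 1 of zero, and the fibril contrasts of Gadd45a include zero.

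With IT in vehicle livers (VI versus VS), 2 of the 4 genes were more than 2-fold higher and 1 was more than 2-fold lower, where 1.54% of the 12180 genes were higher and 1.89% lower by that much. In fibril livers (FI versus FS) the counts were 1 higher, Gadd45g, and 1 lower, Gadd45a, against 1.72% and 2.54% of genes. With fibrils in sedentary livers (FS versus VS), 2 were higher and none lower, against 3.6% and 2.18%. In trained livers (FI versus VI), 1 was higher and none lower, against 2.59% and 1.95%. Both IT contrasts exceeded 2-fold upward for 1 member, Gadd45g (0.378% of all genes), and downward for 1, Gadd45a (0.583%). The call of Gadd45a in VI versus VS is not secure, since its interval reaches −0.83 and the log2 ratio of FPKM with a pseudocount of 1 was −0.97. Both fibril contrasts did so upward for 1, Gadd45g (1.09%), and downward for none (0.608%). Because the genes were chosen on these contrasts, nothing is read from these counts. Each IT contrast shares a library with each fibril contrast, whereas the 2 IT contrasts share none, nor do the 2 fibril contrasts.

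**Figure D3:**
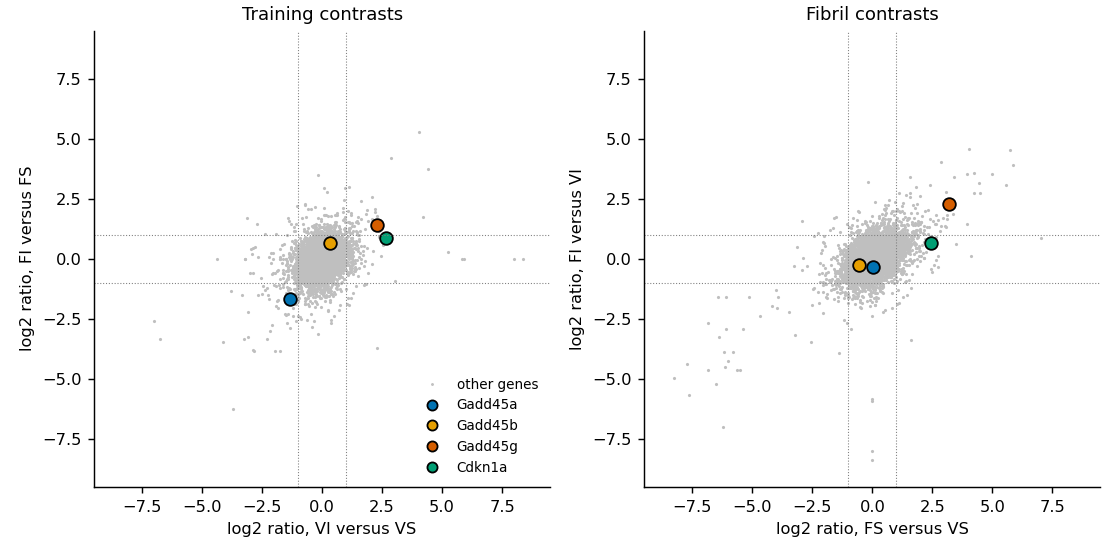
Log2 ratios of the 12180 genes (grey) and of the 4 genes (coloured), left for IT in vehicle livers (x axis) and fibril livers (y axis), right for fibrils in sedentary (x axis) and trained livers (y axis), with dotted lines at 2-fold. Gadd45g lies beyond the upper lines in both panels, Cdkn1a beyond the line of the x axis only, and Gadd45a beyond the lower lines in the left panel only.

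Whether the change with IT was alike in vehicle and fibril livers depended on the gene and on the scale. On the log2 scale the ratio in FI versus FS minus that in VI versus VS was −1.78 (−2.07 to −1.49, Wald interval from the 4 counts) for Cdkn1a and −0.92 (−1.17 to −0.66) for Gadd45g, at ranks 67 and 443 from the bottom of all genes. It was 0.31 (0.09 to 0.53) for Gadd45b and −0.35 (−1.07 to 0.36) for Gadd45a, whose interval includes zero. In CPM, Cdkn1a was higher with IT by 29.8 (27.2 to 32.3) in vehicle livers and by 25.3 (21.7 to 28.9) in fibril livers, a difference of −4.50 CPM (−8.90 to −0.09). For Gadd45g these values were 26.2 CPM (23.7 to 28.7) and 97.9 CPM (92.2 to 104), a difference of 71.7 CPM (65.5 to 78.0). Cdkn1a in FI thus lay at or slightly below the sum of both single changes in CPM, since its interval nearly reaches zero. Gadd45g lay above the sum in CPM and below the product of both folds. The differences in CPM were computed with TMM scaling only. For Gadd45b and Gadd45a the difference in CPM was 3.11 (−0.95 to 7.17) and −0.48 (−1.88 to 0.93), both including zero. From its qPCR in individual mice, the study called Gadd45g and Cdkn1a additively enhanced in FI against VS.

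Set against each other per length, the family changed its leading member. In VS, Gadd45b had 21.3 FPKM, Gadd45g 6.25 FPKM and Gadd45a 4.01 FPKM, so Gadd45b held 67.4% (64.2 to 70.6) of the summed FPKM of the 3 genes. The interval is the exact binomial interval of the counts, rescaled by length. In VI the levels were 26.5 FPKM for Gadd45b and 30.5 FPKM for Gadd45g, 45.3% (42.9 to 47.7) and 52.0% (49.6 to 54.4) of the sum. In FS Gadd45g reached 58.1 FPKM and a share of 75.6% (73.9 to 77.2), and Gadd45b held 19.0% (17.5 to 20.5) with 14.6 FPKM. In FI Gadd45g reached 144 FPKM and a share of 86.3% (85.3 to 87.2), with 21.8 FPKM for Gadd45b. The share of Gadd45a was 12.7% (10.6 to 15.1) and 5.39% (4.57 to 6.32) in the sedentary libraries VS and FS, and 2.68% (1.97 to 3.54) and 0.729% (0.513 to 1.003) in VI and FI. The FPKM of Gadd45g was 1.56, 19.4, 14.0 and 118 times that of Gadd45a in VS, VI, FS and FI. Without division by length, Gadd45b (49.3%) lay above Gadd45g (47.9%) in VI, so their order there rests on the length correction. Cdkn1a, at 2.97, 18.4, 16.5 and 28.6 FPKM in VS, VI, FS and FI, was below Gadd45g in every library, and below Gadd45b in VS and VI but above it in FS and FI.

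**Figure D4:**
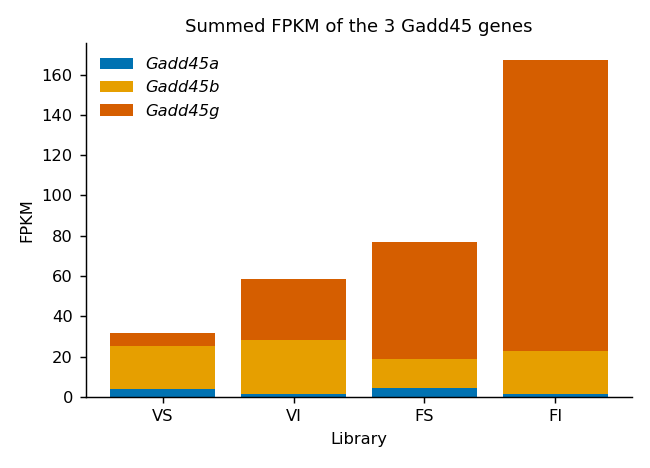
Stacked bars of the FPKM of Gadd45a, Gadd45b and Gadd45g in VS, VI, FS and FI, 1 pooled library each, without error bars. The sums were 31.5, 58.6, 76.8 and 167 FPKM from left to right, and most of the difference lies in the Gadd45g segment.

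By their pattern over the 4 libraries, Gadd45g and Cdkn1a were closer to each other than either was to Gadd45a or Gadd45b. The measure is the root-mean-square distance of log2 CPM after each gene is centred on its mean, over genes that reached 5 CPM in 1 library or more, with Gadd45a, which did not, kept in as a member. Gadd45g and Cdkn1a lay 0.63 apart, and 7 of 9348 genes were nearer to Gadd45g than Cdkn1a was, 17 nearer to Cdkn1a than Gadd45g was. From Gadd45g, Gadd45b lay 1.74 and Gadd45a 2.21 apart, where the median over all genes was 1.66. From Cdkn1a, Gadd45b lay 1.28 and Gadd45a 1.87 apart, where the median was 1.26, so that Gadd45b was at an ordinary distance. Gadd45a and Gadd45b lay 1.02 apart, where the median was 0.78 from Gadd45a and 0.37 from Gadd45b. Of all genes, 94.7% were nearer to Gadd45a than Gadd45b was, and 99.0% nearer to Gadd45b than Gadd45a was. Gadd45g and Cdkn1a had been picked for their levels in these same libraries, a choice that favours their closeness. With 4 libraries this is a description of likeness.

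The genes nearest to Gadd45g were Nnmt (0.41), Gm26809 (0.42), Cyp2b10 (0.51), Ddit4 (0.52) and Igfbp1 (0.57). Nnmt encodes nicotinamide N-methyltransferase and had 3.98, 20.9, 74.2 and 140 CPM in VS, VI, FS and FI, the same order as Gadd45g. Cyp2b10 is a xenobiotic-inducible cytochrome P450, Ddit4 an inhibitor of mTORC1 induced by stress and glucocorticoids, and Igfbp1 a secreted binding protein of insulin-like growth factors that insulin represses in liver. The genes nearest to Cdkn1a were Got1 (0.19), Igfbp1 (0.34), Lepr (0.46), Bmper (0.495) and Cyp2b10 (0.496). Got1, the cytosolic aspartate aminotransferase, had 86.6, 454, 376 and 946 CPM in VS, VI, FS and FI, so that VI and FS were close together as for Cdkn1a. Igfbp1, with 154, 533, 585 and 1396 CPM, and Cyp2b10 were among the 5 nearest of both. The genes nearest to Gadd45a were Klhdc7a (0.04), Nsdhl (0.06), Cyp51 (0.09), Ccnd1 (0.11) and Banp (0.11). Nsdhl and Cyp51 encode enzymes of cholesterol synthesis, and Nsdhl had 15.5, 5.66, 14.9 and 4.96 CPM in VS, VI, FS and FI, low in both IT libraries. Those nearest to Gadd45b were Tgoln1 (0.02), Tymp (0.03), Ormdl3 (0.03), Wdr91 (0.04) and Agpat2 (0.06). Tgoln1 encodes a protein of the trans-Golgi network, Ormdl3 a regulator of sphingolipid synthesis, and Agpat2 an acyltransferase of glycerolipid synthesis.

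Lists of partners, regulators and related genes were set beside the 4 genes, and of 94 listed genes 78 passed the filter at 1 CPM. Over the 8 lists, 5 of 78 genes differed by more than 2-fold with IT in vehicle livers (6.41%, against 3.43% of all genes) and 9 with IT in fibril livers (11.5% against 4.26%). With fibrils 6 did so in sedentary livers (7.69% against 5.78%) and 4 in trained livers (5.13% against 4.54%). Of these, 1, 4, 3 and 0 in the same order had passed the filter only through the library where they were higher. At 5 CPM 57 list genes were left, of which 2 (3.51%) differed by more than 2-fold in each contrast, against 1.54%, 2.17%, 3.78% and 2.45% of all genes. No list had a median beyond 2-fold in any of the 4 contrasts, where the medians over all genes lay between 0.00 and 0.02.

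**Figure D5:**
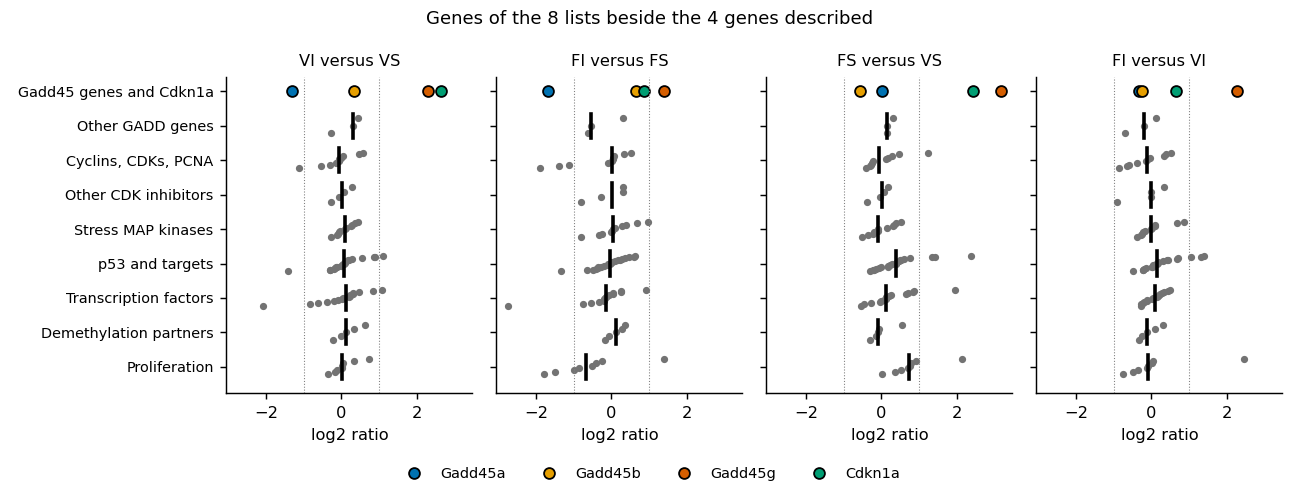
Log2 ratios, 1 panel per contrast, of the 4 genes (coloured, top row) and of each gene of the 8 lists that passed the filter (grey), with a black bar at each list's median and dotted lines at 2-fold. Most list genes lie within 2-fold, while Gadd45g lies beyond 2-fold in each panel.

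Among other transcripts first named for growth arrest and DNA damage, Ppp1r15a (GADD34, a phosphatase subunit that restores translation after stress) and Ddit3 (CHOP, a transcription factor of the stress response) stayed within 2-fold in all 4 contrasts, as did Gadd45gip1, whose product binds Gadd45 proteins. Ddit3 had 9.02, 7.39, 9.99 and 6.49 CPM in VS, VI, FS and FI, and its log2 ratios in these contrasts ranged from −0.62 to 0.15.

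Of 13 cyclins, CDKs and PCNA, 10 passed the filter. Ccnd1, which encodes cyclin D1 of the G1 phase, was lower with IT, at 34.4, 15.8, 39.1 and 10.5 CPM in VS, VI, FS and FI, a log2 ratio of −1.12 (−1.30 to −0.95) in vehicle livers and −1.90 (−2.11 to −1.71) in fibril livers. It therefore went with Gadd45a, and against Gadd45g and Cdkn1a, in both IT contrasts. Cdk1, the mitotic kinase, had 11, 16, 33 and 10 counts in VS, VI, FS and FI, and its log2 ratio was 1.23 (0.24 to 2.40) with fibrils in sedentary livers and −1.40 (−2.62 to −0.38) with IT in fibril livers. Cdk1 passed the filter only through FS, where it is high, so both ratios are descriptions that the filter favoured. Cdk6 had 54 counts in FS and 20 in FI, a log2 ratio of −1.13 (−1.964 to −0.38). Pcna, the sliding clamp that both p21 and Gadd45 proteins bind, lay between 23.2 and 28.9 CPM in all 4 libraries. Of 7 other CDK inhibitors 4 passed the filter, and these stayed within 2-fold in every contrast, with log2 ratios from −0.91 to 0.32. Cdkn1b, which encodes p27, had 22.4, 23.6, 23.6 and 29.4 CPM in VS, VI, FS and FI.

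In the stress MAP kinase cascade, 11 of 13 listed genes entered the counts and none differed by more than 2-fold in any contrast. Map3k4, the kinase that Gadd45 proteins bind, was left out of them because its symbol has 2 rows, 1 of which is at 0 in all libraries. The other row had 7.03, 4.64, 5.76 and 5.37 CPM in VS, VI, FS and FI. Its log2 ratio with IT was −0.60 (−0.96 to −0.25) in vehicle livers and −0.10 (−0.44 to 0.24) in fibril livers, and with fibrils −0.29 (−0.60 to 0.03) in sedentary and 0.21 (−0.16 to 0.59) in trained livers. The log2 ratio nearest to that limit was that of Map2k6, a kinase that activates p38, in FI versus FS, at 0.98, with 24.6, 22.6, 21.1 and 41.5 CPM in VS, VI, FS and FI. Gadd45 proteins act on these kinases by binding, which transcript levels do not show.

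Of 22 genes of p53 and its targets other than the members, 21 passed the filter. The median of their log2 ratios was 0.06 and −0.05 with IT in vehicle and fibril livers, and 0.38 and 0.15 with fibrils in sedentary and trained livers. These medians include Eda2r and Pmaip1, which passed the filter only through FS and VI respectively, so the filter bears on the medians as well. Trp53 itself had 17.2, 15.8, 14.9 and 16.0 CPM in VS, VI, FS and FI, and Mdm2, its inhibitor and target, 20.7, 22.6, 24.1 and 23.2 CPM. With fibrils, 3 of the 21 were more than 2-fold higher in sedentary livers (3.6% of all genes were) and 3 in trained livers (2.59%), with none lower (2.18% and 1.95%). The count in sedentary livers includes Eda2r, which the filter favoured. Btg2, an antiproliferative gene, had 9.19, 13.5, 47.8 and 33.6 CPM in VS, VI, FS and FI, a log2 ratio of 2.38 (2.17 to 2.59) with fibrils in sedentary livers and 1.32 (1.13 to 1.51) in trained livers. Trp53inp1, which promotes autophagy and cell death, had 61.7, 114, 156 and 235 CPM in VS, VI, FS and FI, the same order of libraries as Gadd45g. With fibrils its log2 ratio was 1.33 (1.25 to 1.42) in sedentary and 1.04 (0.98 to 1.11) in trained livers, and it was under 1 in both IT contrasts. Eda2r had 11, 9, 38 and 12 counts in VS, VI, FS and FI, a log2 ratio of 1.43 in FS versus VS and −1.34 in FI versus FS, and passed the filter only through FS. Phlda3 had 27, 10, 44 and 27 counts, a log2 ratio of −1.43 (−2.69 to −0.39) with IT in vehicle livers and 1.40 (0.35 to 2.65) with fibrils in trained livers, both of which rest on the 10 counts of VI. Pmaip1, the proapoptotic gene Noxa, had 12 counts in VS and 27 in VI, a log2 ratio of 1.09 (0.10 to 2.24), and passed the filter only through VI. With IT, 1 of 21 genes was more than 2-fold higher and 1 lower in vehicle livers, where 1.54% and 1.89% of all genes were. In fibril livers none was higher and 1 lower, against 1.72% and 2.54%. The gene higher in vehicle livers was Pmaip1 and the gene lower in fibril livers was Eda2r, so the filter favoured both counts.

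All 16 transcription factors known to act on these genes passed the filter. Nr1d1, the clock repressor REV-ERBα, was lower with IT at 30.02, 7.10, 49.0 and 7.19 CPM in VS, VI, FS and FI, log2 ratios of −2.08 (−2.33 to −1.84) and −2.77 (−3.00 to −2.54). It was low in the same libraries as Gadd45a. Atf3, an early stress factor, had 24, 53, 117 and 66 counts in VS, VI, FS and FI, a log2 ratio of 1.08 (0.38 to 1.86) with IT and 1.94 (1.32 to 2.66) with fibrils against VS, and −0.54 in FI versus FS. The other 14 stayed within 2-fold in all 4 contrasts. Of 6 demethylation partners of Gadd45a, 5 passed the filter and none differed by more than 2-fold. Of 14 proliferation genes, 8 passed the filter, most with low counts. Mki67, Cdc20 and Mcm6 passed it only through FS, so their being highest there had to follow and no median is given for this list. Cdc20 had 6, 8, 35 and 8 counts and Mcm6 18, 19, 39 and 11 counts in VS, VI, FS and FI. Mcm5 had 57 counts in FS and 23 in FI, a log2 ratio of −1.01 (−1.79 to −0.30). Rrm2, a ribonucleotide reductase subunit, had 20, 16, 41 and 89 counts and was highest in FI.

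Markers of other cells differed between the libraries. The 12 skeletal muscle markers summed to 77.5, 9.89, 0.982 and 0.827 CPM in VS, VI, FS and FI, Tnnc2 was at 0 throughout, and Myh1, Myh2, Tnnc2 and Pvalb were at 0 in FS and FI, with Acta1, Ckm, Mb and Myh4 also at 0 in FI. VS, highest in muscle markers, was lowest in Gadd45g and Cdkn1a. FI versus FS and FI versus VI do not use VS, but the muscle sum also differed between VI and FI (9.89 and 0.827 CPM). Gadd45a had 4.95 CPM in FS and 4.87 CPM in VS. The part of muscle RNA in these levels and in any contrast, with or without VS, was not tested. The 8 neutrophil markers, 3 of which passed the filter, summed to 2.63, 3.202, 17.5 and 13.2 CPM in VS, VI, FS and FI, with Mpo and Camp at 0 in VS, Elane, Mpo, Ngp and Camp in VI, and Elane and Mpo in FI. The 7 matched of 8 macrophage markers, none at 0, summed to 289, 334, 453 and 424 CPM. Both sums were higher in the fibril libraries, as Gadd45g was, and their part in the levels of the 4 genes was not tested. Endothelial markers summed to between 150 and 177 CPM, stellate cell markers to between 129 and 155 CPM, cholangiocyte markers to between 12.6 and 20.1 CPM, and the 8 matched of 9 lymphocyte markers to between 2.46 and 4.2 CPM.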

How the data were processed

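Liver tissue of 4 mice was pooled for each of VS, VI, FS and FI, and total RNA was sequenced on an Illumina platform. The authors deposited raw read counts per gene and FPKM made from them. Per the labels, the submitters' processing notes name fastp 0.23.2, STAR 2.5, HTSeq 0.6.1 and mm10. Deposited FPKM equalled count divided by listed gene length and by the library's total count, within a relative tolerance of 1e-05 in all 69722 values above 0. How reads shared by overlapping genes were treated is not given in any source used here.

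Counts were scaled by TMM (edgeR 4.0.16, R 4.3.3), and ratios and intervals were computed with scipy 1.17.1 in Python 3.11.15. The filter kept genes that reached 1 CPM in 1 library or more. The ratio and interval code was tested on simulated data. With 1 library per group no test across mice can be had, and none was run. Members and lists were chosen with earlier results of these data known, the promoter motifs after the promoters had been read, and the differences in CPM after the counts had been seen.

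Within each list and contrast the genes beyond 2-fold were named, at most the 4 farthest, with Trp53, Mdm2, Ppp1r15a, Ddit3, Gadd45gip1, Pcna, Cdkn1b, Map2k6, Map3k4 and Mki67 and the overlapping gene E230016M11Rik added for their role after their values were seen. The 5 genes nearest to each member in pattern were named. Alternatives were DESeq2 1.42.0 size factors, total counts, a prior of 2 counts, FPKM with a pseudocount of 0.1 or 1, other filters, a fold threshold of 1.5, and shares from counts or TPM. Protein sequences were not used here.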

Additional observations from a re-analysis of the deposited data

Results flagged for a closer look

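Gadd45a differed in direction between the fibril contrasts, slightly higher in FS than in VS (log2 ratio 0.0221) and lower in FI than in VI (−0.331). Each value rests on 1 pooled library per group, both 95% counting intervals include zero, and the difference between them was not tested across mice. Expressed as the departure from additive log2 changes it was −0.35 (−1.07 to 0.36).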

How the results depend on the processing

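The direction of all 16 ratios of the 4 genes was kept under DESeq2 size factors, total counts, a prior of 2 counts and FPKM with a pseudocount of 0.1 or 1, and scaling or the prior moved none by more than 0.0709. With a pseudocount of 1 on FPKM, Gadd45a came to −0.97 in VI versus VS, under 2-fold, and to −1.21 from −1.68 in FI versus FS, Gadd45g in FI versus FS to 1.30, and Cdkn1a to 2.29 in VI versus VS and 2.14 in FS versus VS. Shares from counts not divided by length were 49.3% for Gadd45b and 47.9% for Gadd45g in VI, 21.5% and 72.6% in FS, and 15.0% and 84.2% in FI. With genes from 1 CPM admitted, 2 of the 5 genes nearest to Cdkn1a stayed among its 5 nearest.

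Counts of genes beyond the threshold moved with filter and threshold. With IT in vehicle and in fibril livers, then with fibrils in sedentary and in trained livers, 418, 519, 704 and 553 genes differed by more than 2-fold at 1 CPM. There were 4024, 4153, 4429 and 4197 without a filter, 144, 203, 353 and 229 at 5 CPM, and 1420, 1651, 2134 and 1702 beyond 1.5-fold. For the 8 lists these were 13, 14, 14 and 8 without a filter, 2, 2, 2 and 2 of 57 at 5 CPM, and 12, 20, 16 and 14 beyond 1.5-fold.

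Genes with few counts, as Cdk1, Cdc20 and Eda2r, have wide intervals. A count of 0 allows up to 3 counts, which is between 0.102 and 0.127 CPM. No paired analysis was possible because each group is 1 pooled library, and for the same reason no library was left out in turn.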
